A study of Bos taurus with 179 samples.

Results

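Cadherins and catenins are the core proteins of adherens junctions, and 8 genes of this family were looked for in the transcriptomes of single growing oocytes of cattle (Bos taurus). Genes were taken as members where the supplementary gene tables of the study pair their symbol with a gene ID of the count table. This held for 7 of the 8 (CDH1, CDH3, CTNNA1, CTNNA2, CTNNB1, CTNNBL1 and CTNND1) among 21218 gene IDs in all, and CDH2 was not analysed here. All 7 were paired through the list of genes that the study counted as expressed in every size group, so their detection in every group was part of the choice and is not a result.

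Classical cadherins are calcium-dependent receptors that bind the same cadherin on a neighbouring cell. Inside the cell, β-catenin (CTNNB1) and p120-catenin (CTNND1) bind the cadherin tail, and α-catenins (CTNNA1 and the neural form CTNNA2) connect β-catenin to actin. β-catenin also serves as a cofactor of transcription in Wnt signalling. In the ovary, cadherins are known at the contacts between the oocyte and the granulosa cells that surround it. CTNNBL1 shares the armadillo repeats of β-catenin but is known as a nuclear protein bound to the CDC5L splicing complex, not as a junction protein.

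The oocytes came from ovaries collected at an abattoir, were freed of follicular cells and were measured before lysis. Fully grown oocytes were aspirated from surface follicles and growing ones freed by slicing the cortex, and the labels do not say which of the oocytes were aspirated. They fell into 8 size groups by diameter: <60 μm (21 oocytes), 60–69 μm (25), 70–79 μm (23), 80–89 μm (24), 90–99 μm (21), 100–109 μm (18), 110–119 μm (19) and >120 μm (14). Polyadenylated mRNA was sequenced in 2 library replicates that differ in read length, 150 bp in replicate 1 (97 oocytes) and 75 bp in replicate 2 (68 oocytes). The animals are not named, several oocytes may share an animal, and the <60 μm group holds 3 oocytes of replicate 1 and 18 of replicate 2, against 10 and 4 in the >120 μm group.

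Depth ranged from 277126 to 8038061 counts per oocyte over the oocytes used, with a median of 1763520. For tests, oocytes of like size and replicate were pooled by adding their counts, giving 16 sums of 4467434 to 46545515 counts. In the sum of 100–109 μm oocytes of replicate 1, a single oocyte gave 52.9% of the counts. The oocyte with the most counts gave 46.6% of the <60 μm sum of replicate 1. Such oocytes gave 33.1 and 37.5% of the >120 μm sums of replicates 1 and 2, and 11.8 to 24.8% of the others. Levels are CPM (counts scaled to a common library size, by TMM), so they are relative to all mRNA of the oocyte and say nothing of the number of molecules per oocyte, and p-values measure the spread between these sums. Transcript lengths were not at hand, so levels are not compared between genes.

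The oocyte label was checked against marker genes. BMP15, BTG4, CPEB1, BCAR4 and AURKC were detected in every oocyte and ACTL8 in 116. Of the granulosa markers, AMHR2 was detected in 10 oocytes, FSHR in 45, CYP11A1 in 9 and CCND2 in 8. The 4 granulosa markers together had a median of 0.825 CPM in oocytes <60 μm, 0.0978 CPM at 80–89 μm and 0 in the other 6 groups, with a highest oocyte at 16.6 CPM. Among the markers of theca and stroma, COL1A2 was found in 143 oocytes, but COL1A1, COL3A1 and DCN in 2, 4 and 13, and the 2 gene IDs of CYP17A1 in 3 and 8.

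Over oocyte growth the 2 cadherins moved in opposite directions, while edgeR over the 16 sums called no slope for the other 5 members. That of p120-catenin was called under 8 of 10 alternatives (15.6 to 57.7% of all genes called over the 10). CDH1, which encodes E-cadherin, rose with diameter by 0.18 ± 0.04 (SE) on the log2 scale per 10 μm (edgeR quasi-likelihood test with the replicate as a block, Benjamini-Hochberg adjusted p = 0.000724). CDH3, which encodes P-cadherin, fell by 0.19 ± 0.03 per 10 μm (edgeR adjusted p = 0.000287). These were the 2 members called at an adjusted p of 0.05 out of 7, while 33% of the 14087 genes tested had a called slope (14.8% upward and 18.1% downward). The share of members called was thus near that of all genes, and the median slope over the 7 members was 0.04 against -0.02 over all genes.

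The same 2 members were called in the test for any difference among the 8 size groups, with an adjusted p of 0.0130 for CDH1 and 0.00838 for CDH3 in edgeR, and 14.9% of all genes were called there. Without the replicate block both lost this call (edgeR adjusted p = 0.645 and 1), and edgeR then called 0% of all genes (954 of 14087 had an unadjusted p under 0.05). Between the extremes of growth, >120 against <60 μm, CDH1 was 2.60-fold higher (log2 fold change 1.38 ± 0.29 SE, edgeR adjusted p = 0.00325) and CDH3 was at 0.430 of its starting level (log2 fold change -1.22 ± 0.29 SE, edgeR adjusted p = 0.00741). Of all genes, 19.2% were called in this comparison (9.36% higher and 9.8% lower). The median log2 fold change over all genes was -0.12 after TMM scaling. That scaling centres such values near 0, so no shift of the whole table can be read from it. Without the replicate block both members lost this call (edgeR adjusted p = 0.129 for CDH1 and 0.384 for CDH3). Their log2 fold changes were nearly the same, 1.37 and -1.23, and 0.575% of all genes were then called. The slopes of both members remained called without the block, where 15.6% of all genes had a called slope. The call of CDH1 between the extremes was also lost without the <60 μm sum of replicate 1 (log2 fold change 1.11, edgeR adjusted p = 0.0682), and that of CDH3 without the >120 μm sum of replicate 1 (-1.17, 0.0791) or of replicate 2 (-1.14, 0.0716).

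**Figure D1:**
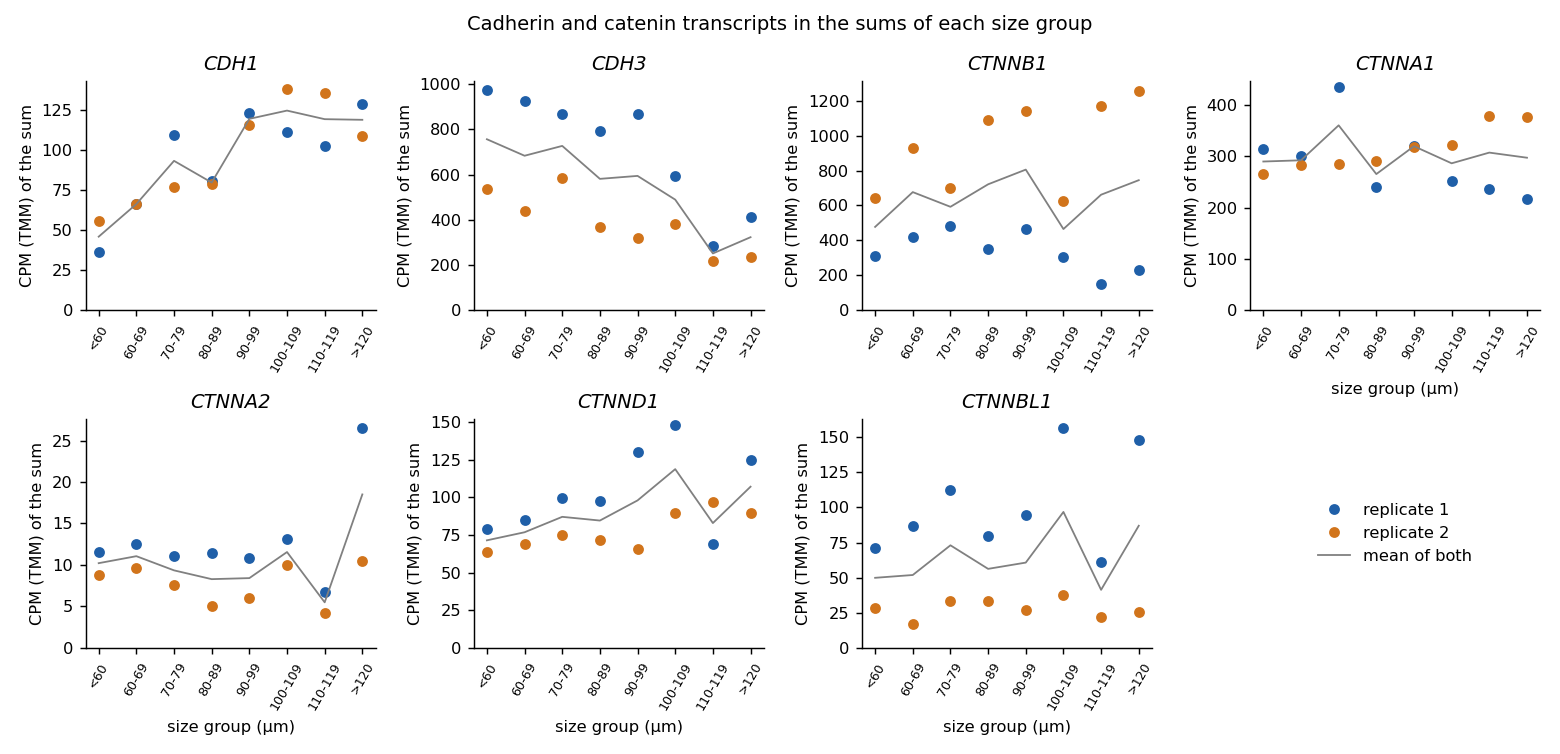
CPM of each member (vertical axes, linear, starting at 0) in the sums of the 8 size groups (horizontal axes, μm), with replicate 1 in blue, replicate 2 in orange and the mean of both as a grey line. CDH1 climbs from 36.0 and 55.7 CPM to 129 and 109 CPM, and CDH3 drops from 976 and 537 CPM to 410 and 236 CPM.

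E-cadherin transcripts were lowest in the smallest oocytes and lay within a narrow range in the 4 largest groups. In replicate 1, the sums of CDH1 (ENSBTAG00000015991) from the smallest to the largest group were 36.0, 66.2, 109.1, 80.6, 123.2, 111.1, 102.6 and 128.9 CPM. In replicate 2 they were 55.7, 66.1, 77.1, 78.6, 115.4, 137.8, 135.6 and 108.6 CPM. The lowest sum of both replicates was that of oocytes <60 μm, and the sums of the <60 and >120 μm groups did not overlap. From 90 μm upward all 8 sums lay between 103 and 138 CPM, and below that size only the 70–79 μm sum of replicate 1 reached this range.

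No step between neighbouring size groups was called for CDH1 in edgeR over the 16 sums. The step to 70–79 μm from all smaller oocytes had a log2 fold change of 0.76 ± 0.24 SE, with an unadjusted p of 0.00520 and an adjusted p of 0.390, where 0.135% of all genes were called. This step was called with single oocytes as units (edgeR adjusted p = 0.0212), where 7.8% of all genes were called. Oocytes may share an animal, so p-values with single oocytes as units, here and below, may be too small. The last steps were near 0, with log2 fold changes of -0.07 ± 0.29 SE from 100–109 to 110–119 μm and 0.00 ± 0.29 SE from there to >120 μm.

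Single oocytes of like size differed widely in E-cadherin transcripts. In oocytes <60 μm the lowest, median and highest values were 9.05, 53.9 and 102 CPM, and in oocytes >120 μm they were 54.7, 141 and 369 CPM. The ranges of the extremes thus overlapped, although the median of the largest oocytes exceeded the highest value of the smallest. The SD within a group and replicate was 0.73 on the log2(CPM + 1) scale, against 0.49 for CDH3. Pearson's r of CDH1 with diameter was 0.440 over all oocytes used (Spearman's rho 0.453) with the replicate means removed, 0.361 within replicate 1 and 0.563 within replicate 2, given as a description because oocytes may share an animal and all share the diameter scale with their group.

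P-cadherin transcripts fell, with the lowest sums at the end of growth. In replicate 1, the sums of CDH3 (ENSBTAG00000033248) from the smallest to the largest group were 976.2, 927.9, 869.6, 792.6, 868.2, 595.4, 284.4 and 410.5 CPM. In replicate 2 they were 536.9, 439.2, 584.5, 369.9, 320.5, 383.3, 218.1 and 235.8 CPM. In both replicates the lowest values were those of the 110–119 and >120 μm groups, and the highest in replicate 1 was that of oocytes <60 μm. Replicate 1 was higher in all 8 groups, by 1.30- to 2.71-fold.

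The largest downward step of CDH3 between neighbouring groups, from 100–109 to 110–119 μm, had a log2 fold change of -0.93 ± 0.29 SE and did not pass (edgeR unadjusted p = 0.00491, adjusted p = 0.0671), and 3.88% of all genes were called at this step. The call at this step depended on the tool, the units and the libraries used. It was made with DESeq2 (adjusted p = 0.0178) and with each oocyte thinned to 250000 counts (edgeR adjusted p = 0.0203). Single oocytes as units also gave it (edgeR adjusted p = 6.38e-08, with 37% of all genes called), although they may share an animal. It was made as well without the 100–109 μm oocyte with the most counts (edgeR adjusted p = 0.0348) and without the 110–119 μm sum of replicate 2 (0.0434). In single oocytes the median was 683 CPM at 100–109 μm (lowest 248.98, highest 962.6) and 301 CPM at 110–119 μm (lowest 79.3, highest 655). The ranges of these groups overlapped.

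At the extremes of growth, the oocytes <60 μm had a lowest, median and highest CDH3 level of 233.4, 618.1 and 1279 CPM, and those >120 μm of 90.1, 422 and 802 CPM. Medians in between reached 876 CPM at 70–79 μm, so the medians of single oocytes, in which the replicates are mixed in unequal parts, did not fall from the start. With the replicate means removed, r with diameter was -0.609 over all oocytes used (Spearman's rho -0.588), and it was -0.639 within replicate 1 and -0.579 within replicate 2. Over all deposited oocytes with more than 1000 counts (178) r was -0.145 and rho -0.434.

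**Figure D2:**
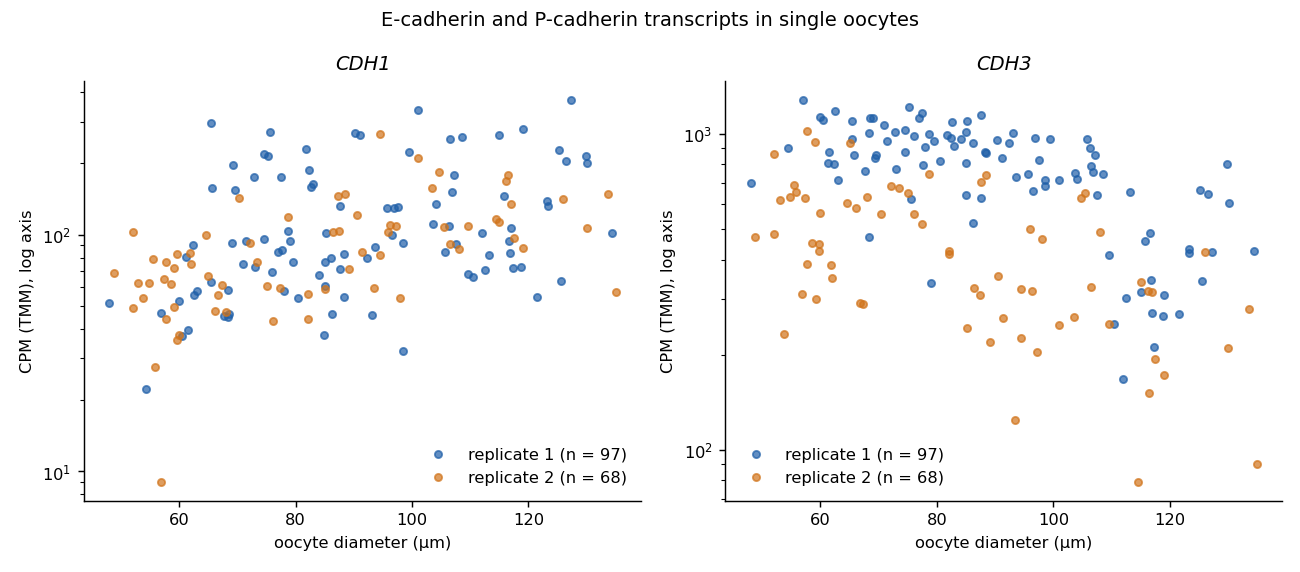
CPM of CDH1 (left) and CDH3 (right) in each oocyte used (vertical axes, log scale) against the oocyte's diameter (horizontal axes, μm), with replicate 1 in blue and replicate 2 in orange. CDH1 tends upward (r = 0.440) and CDH3 downward (r = -0.609), and oocytes of one diameter spread widely around both trends.

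Since CDH1 and CDH3 were counted in the same oocytes, the ratio of their counts does not depend on scaling to depth, although its absolute size also depends on transcript length. The ratio of CDH1 to CDH3 counts in the sums of oocytes <60 μm was 0.0369 in replicate 1 and 0.104 in replicate 2. In those of 70–79 μm it was 0.126 and 0.132, in those of 100–109 μm 0.187 and 0.360, and in those of 110–119 μm 0.361 and 0.622. In the >120 μm sums it was 0.314 and 0.461, lower than at 110–119 μm but above both sums <60 μm. In single oocytes the median ratio was 0.101 (lowest 0.0247, highest 0.242) in the smallest group and 0.332 (lowest 0.186, highest 0.876) in the largest, and these ranges overlapped between 0.186 and 0.242. The r of the log2 ratio with diameter was 0.699 over all oocytes used, 0.657 in replicate 1 and 0.751 in replicate 2 (0.5 added to each count).

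**Figure D3:**
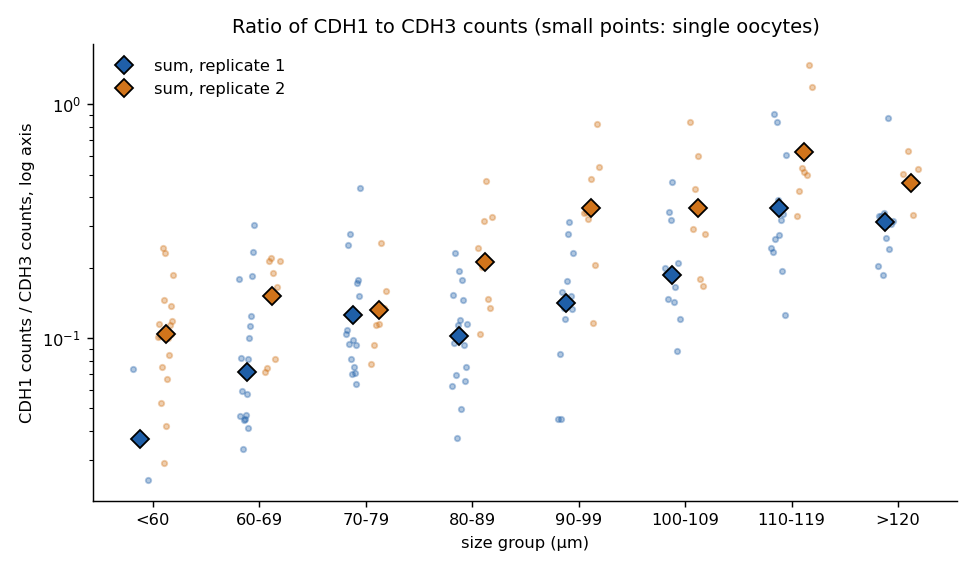
Ratio of CDH1 to CDH3 counts (vertical axis, log scale) by size group (horizontal axis, μm), with large diamonds for the sums, small points for single oocytes, replicate 1 in blue and replicate 2 in orange. The sums rise from 0.0369 and 0.104 in the smallest oocytes to 0.361 and 0.622 at 110–119 μm.

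In the RefSeq annotation of cattle, CDH1 and CDH3 are neighbours with 0 protein-coding genes between them, so the opposite slopes belong to adjacent genes. With the means of group and replicate removed, r between them was 0.22 over the oocytes used, while it was -0.58 over the 16 sums with the replicate means removed. Among the members, CDH1 went most closely with CTNND1, with an r of 0.36 within groups over oocytes and 0.64 over the sums. For CDH3 and CTNND1 r was 0.40 within groups over oocytes and -0.14 over the sums. All of these values share libraries and depth and are descriptions.

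Depth, somatic markers and the library replicate were set beside these changes. Median totals per group lay between 923622 and 2563427 counts. After thinning every oocyte to 250000 counts the slopes were 0.18 ± 0.03 SE for CDH1 and -0.16 ± 0.03 SE for CDH3. Both were still called in edgeR (adjusted p = 0.000211 and 0.000790), where 38.2% of all genes had a called slope. The 6 gene IDs of theca and stroma markers had summed medians of 0.745 CPM <60 μm (0 to 6.73) and 7.65 CPM >120 μm (1.69 to 23.6), mostly COL1A2, and their part in the result was not tested. The granulosa markers were at 0 to 9.002 CPM <60 μm and 0 to 5.77 CPM >120 μm. Within replicate 1 the slopes were 0.18 ± 0.05 SE for CDH1 and -0.21 ± 0.05 SE for CDH3, and within replicate 2 they were 0.17 ± 0.05 and -0.17 ± 0.05, each called in edgeR at an adjusted p of 0.0262 or lower (23.8% of all genes were called in replicate 1 and 14.4% in replicate 2).

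**Figure D4:**
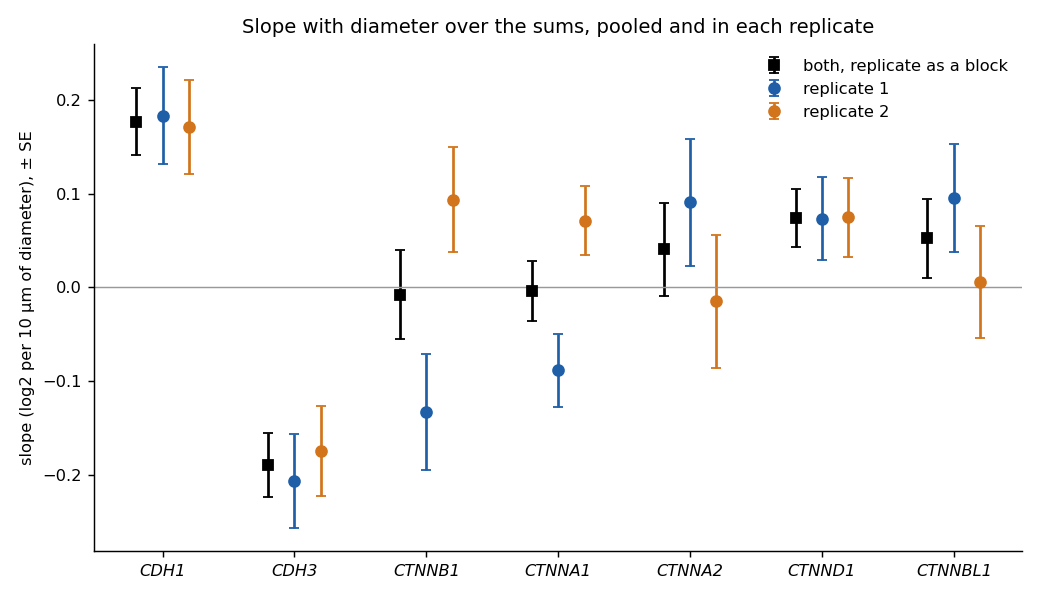
Slope of each member with diameter (vertical axis, log2 per 10 μm, bars ± SE) over the 16 sums with the replicate as a block (black squares) and in the 8 sums of replicate 1 (blue) and replicate 2 (orange). CDH1 and CDH3 keep their direction in both replicates, whereas CTNNB1, CTNNA1 and CTNNA2 have slopes of opposite sign, none of them called.

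None of the intracellular partners of the cadherins had a called slope in edgeR over the 16 sums, although that of p120-catenin depended on the setting. β-catenin, CTNNB1 (ENSBTAG00000016420), had a slope of -0.01 ± 0.05 SE per 10 μm (95% interval -0.10 to 0.09, edgeR adjusted p = 0.920). Its sums in replicate 1 were 311.9, 421.7, 484.04, 350.6, 466.8, 302.8, 150.9 and 232.2 CPM from the smallest to the largest group, and in replicate 2 they were 642.4, 931.2, 700.5, 1091.6, 1143.7, 627.1, 1172.2 and 1257.1 CPM. Replicate 2 was higher in every group, and replicate 1 stood at -1.50 ± 0.22 SE on the log2 scale against it (edgeR adjusted p = 1.09e-05), where 57.7% of all genes differed between the replicates.

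The flat slope of CTNNB1 averaged opposite slopes, -0.13 ± 0.06 SE in replicate 1 and 0.09 ± 0.06 SE in replicate 2. Neither was called, and the test of their difference gave -0.23 ± 0.08 SE with an unadjusted p of 0.0131 and an adjusted p of 0.325 in edgeR. In that test 0% of all genes were called by edgeR (1527 of 14087 had an unadjusted p under 0.05), and it was chosen after the values had been seen. Single oocytes ranged from 68.2 to 2573 CPM of CTNNB1, with r with diameter at -0.452 in replicate 1 and 0.234 in replicate 2.

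αE-catenin, CTNNA1 (ENSBTAG00000014182), showed the same split between replicates. Its slope was -0.004 ± 0.03 SE (95% interval -0.07 to 0.06, edgeR adjusted p = 0.937). The sums were 314.4, 300.3, 435.5, 239.8, 320.7, 251.1, 235.7 and 217.5 CPM in replicate 1 and 264.8, 283.7, 284.7, 290.5, 318.1, 321.2, 378.2 and 376.5 CPM in replicate 2. In replicate 1 the 3 largest groups lay below the 3 smallest, and in replicate 2 above them. The slopes were -0.09 ± 0.04 SE and 0.07 ± 0.04 SE, and their difference of -0.16 ± 0.05 SE did not pass (edgeR unadjusted p = 0.00675, adjusted p = 0.301). CTNNA1 varied least from oocyte to oocyte among the members, with an SD of 0.41 on the log2(CPM + 1) scale within group and replicate, and its r with CTNNB1 within groups was 0.49, the highest of the 21 pairs of members.

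p120-catenin, CTNND1 (ENSBTAG00000002411), which holds cadherins at the cell surface, had an upward slope of 0.07 ± 0.03 SE per 10 μm that missed the threshold (edgeR unadjusted p = 0.0238, adjusted p = 0.0663). The slope was 0.07 ± 0.04 SE in each replicate. It was called under 8 of 10 alternatives that kept all sums, with adjusted p from 6.69e-05 to 0.260 over the 10. The share of all genes with a called slope ranged from 15.6% without the replicate block to 57.7% with single oocytes as units. Leaving out any of 8 sums also brought it past the threshold, with edgeR adjusted p of 0.00450 to 0.0498, namely 60–69 μm replicate 2, 70–79 μm replicate 1, 80–89 μm replicate 2, 90–99 μm replicates 1 and 2, 100–109 μm replicate 1, 110–119 μm replicate 1 and >120 μm replicate 2. The sums were 79.0, 84.7, 99.2, 97.7, 130.01, 147.9, 68.9 and 124.5 CPM in replicate 1 and 63.7, 68.7, 74.7, 71.3, 65.7, 89.3, 96.8 and 89.5 CPM in replicate 2. In replicate 1 the 110–119 μm sum was the lowest of all, and without it the slope was 0.10 ± 0.03 SE (edgeR adjusted p = 0.00450). In replicate 2 the 3 highest sums were those of the 3 largest groups.

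αN-catenin, CTNNA2 (ENSBTAG00000031669), gave few counts, 3939 over the oocytes used against 105791 for CTNNA1. Its slope was 0.04 ± 0.05 SE per 10 μm (edgeR adjusted p = 0.565), with 0.09 ± 0.07 SE in replicate 1 and -0.01 ± 0.07 SE in replicate 2. The sums were 11.6, 12.5, 11.1, 11.5, 10.8, 13.2, 6.74 and 26.5 CPM in replicate 1 and 8.82, 9.60, 7.58, 5.07, 5.98, 9.94, 4.24 and 10.5 CPM in replicate 2. In both replicates the 110–119 μm sum was the lowest and the >120 μm sum the highest. The difference between them had a log2 fold change of 1.70 ± 0.40 SE with an unadjusted p of 0.000471, but an adjusted p of 0.427 in edgeR, where 0.0071% of all genes were called, and it was called with single oocytes as units (0.00842, with 4.71% of all genes called). Without the >120 μm sum of replicate 1 it was 1.21 ± 0.52 SE (edgeR adjusted p = 0.805). The oocyte with the most counts in that sum held 51.4 CPM of CTNNA2 and the other 9 held 8.37 to 29.5 CPM. The preceding step down from 100–109 μm had a log2 fold change of -1.10 ± 0.40 SE (edgeR adjusted p = 0.0954), and it was called with DESeq2 (adjusted p = 0.0459) and with single oocytes as units (edgeR adjusted p = 0.0345). Reads of CTNNA2 lay on 2 lines of the count table (1004 and 2935 counts), and those of CTNNA1 on 3 (103001, 2200 and 590).

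CTNNBL1 (ENSBTAG00000007658) showed the largest difference between the library replicates, 1.82 ± 0.16 SE on the log2 scale higher in replicate 1 (edgeR adjusted p = 3.23e-08). The sums were 71.2, 86.8, 112.4, 79.5, 94.8, 156.2, 61.0 and 148.01 CPM in replicate 1 and 28.5, 17.0, 33.6, 33.01, 26.6, 37.3, 21.7 and 25.9 CPM in replicate 2. Both replicates had their highest sum at 100–109 μm and lower sums at 110–119 μm, with a log2 fold change of -1.08 ± 0.32 SE that was just above the threshold (edgeR adjusted p = 0.0579). This difference was called under 4 of 10 alternatives that kept all sums, among them DESeq2 (adjusted p = 0.0232), and without either sum of the <60 μm group (edgeR adjusted p = 0.0431 and 0.0437). It shrank to -0.63 ± 0.30 SE with each oocyte thinned to 250000 counts (edgeR adjusted p = 0.189). It shrank to -0.72 ± 0.32 SE without the 100–109 μm oocyte with the most counts, one of replicate 1 (edgeR adjusted p = 0.187). That oocyte held 244.5 CPM of CTNNBL1, while the other 10 of its sum held 72.7 to 116.5 CPM. The >120 μm oocyte of replicate 1 with the most counts likewise held 297.3 CPM, while the other 9 of its sum held 82.9 to 141.2 CPM. These 9 values all lay below the value of the sum. The slope over all sums was 0.05 ± 0.04 SE (edgeR adjusted p = 0.359).

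Over the 7 steps between neighbouring size groups, edgeR over the 16 sums called none of the 49 member values, of which 7 had an unadjusted p under 0.05, with log2 fold changes from -1.10 to 1.70. DESeq2 called 3 members at the step from 100–109 to 110–119 μm, CDH3, CTNNA2 and CTNNBL1, all lower, where it called 14% of all genes. The background for the other steps was 0.0142% of all genes called for 60–69 against <60 μm, 0% for 80–99 against 70–79 μm and for 90–99 against 80–89 μm, and 0.497% for 100–109 against 80–99 μm.

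Other genes of the cadherin and catenin families were counted from lists chosen with earlier results known and limited to genes with a symbol at hand, most of which begin with the first letters of the alphabet, so the lists hold only part of each family or complex. Of 27 other cadherin superfamily genes, 17 passed the filter on low counts, and 4 of these fell with diameter while 13 were not called and none rose, against 18.1% of all genes with a called downward slope and 14.8% with an upward one. CDH7, a classical type II cadherin, fell from 74.2 and 113 CPM <60 μm to 23.9 and 59.2 CPM >120 μm (slope -0.19 ± 0.03 SE, edgeR adjusted p = 4.15e-05). DSG2, a desmosomal cadherin, fell by 0.28 ± 0.08 SE per 10 μm (edgeR adjusted p = 0.00872). CDH18 fell by 0.22 ± 0.06 SE (edgeR adjusted p = 0.00829), and its means went from 22.7 CPM <60 μm to 8.53 CPM at 70–79 μm and 6.63 CPM >120 μm. The fourth, CLSTN1, a calsyntenin, fell by 0.21 ± 0.06 SE (edgeR adjusted p = 0.00703). The median slope of the 17 was -0.15, and several had levels below 1 CPM.

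Of the other catenins and catenin-related genes, 2 of 4 fell and 2 were not called (18.1% of all genes fell), too few genes to set against that share. CTNND2, a relative of p120-catenin, fell from 70.2 and 36.7 CPM <60 μm to 21.2 and 9.55 CPM >120 μm, with a slope of -0.27 ± 0.04 SE (edgeR adjusted p = 8.02e-05). CTNNAL1, an α-catenin-like protein, fell by 0.11 ± 0.03 SE (edgeR adjusted p = 0.0133). CTNNA3, a further α-catenin, differed among the size groups (edgeR adjusted p = 0.00802), with means of 32.2 CPM <60 μm, 8.81 CPM at 100–109 μm and 18.7 CPM >120 μm, and its slope was not called (-0.12 ± 0.05 SE, edgeR adjusted p = 0.0584). CTNND1 and CTNND2 thus had slopes of opposite sign, of which that of CTNND2 was called.

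Among genes that link junctions to actin or process cadherins, 11 of 13 were tested, and 2 rose, 4 fell and 5 were not called, beside 14.8% of all genes that rose and 18.1% that fell. ACTG1, cytoplasmic γ-actin, fell from 1918 and 953 CPM <60 μm to 476.3 and 323.1 CPM >120 μm (slope -0.25 ± 0.03 SE, edgeR adjusted p = 4.24e-06). The others that fell were the α-actinins ACTN1 (by 0.12 ± 0.03 SE, edgeR adjusted p = 0.00826) and ACTN4 (by 0.15 ± 0.04 SE, 0.00661) and the GTPase CDC42 (by 0.08 ± 0.03 SE, 0.0345). Those that rose were ADAM10, a protease that sheds cadherins (slope 0.11 ± 0.04 SE, edgeR adjusted p = 0.0252), and AJUBA, a LIM protein that binds α-catenin (0.13 ± 0.04 SE, 0.0212). From <60 to >120 μm, ADAM10 went from 65.7 to 71.6 CPM in replicate 1 and from 138 to 307 CPM in replicate 2. The median slope of this list was -0.06.

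Of the β-catenin destruction complex and its cofactors, the 16 listed genes (symbols from AMER1 to CTBP2, without GSK3B and the TCF/LEF factors) were all tested, and 4 rose, 2 fell and 10 were not called, with a median slope of 0.04. The share called was near the 33% of all genes with a called slope. CSNK1E, a casein kinase of the Wnt pathway, rose from 15.1 and 8.20 CPM <60 μm to 54.3 and 23.3 CPM >120 μm, with a slope of 0.26 ± 0.05 SE (edgeR adjusted p = 0.000328). AXIN1 and AXIN2, scaffolds of the destruction complex, also rose (slopes 0.14 ± 0.05 SE and 0.23 ± 0.06 SE, edgeR adjusted p = 0.0345 and 0.00303), as did CBY1, which binds β-catenin (0.15 ± 0.03 SE, 0.00209). Of the 2 that fell, BTRC encodes a subunit of the ubiquitin ligase for β-catenin (-0.07 ± 0.03 SE, edgeR adjusted p = 0.0286) and CSNK1D a casein kinase (-0.12 ± 0.03 SE, 0.00676).

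Around CTNNBL1, 7 genes listed for the CDC5L splicing complex were tested, some of which encode other spliceosome proteins. By slope none rose, 1 fell and 6 were not called, where 33% of all genes were called. CRNKL1 fell by 0.13 ± 0.03 SE per 10 μm (edgeR adjusted p = 0.00468). BCAS2 differed among the groups (edgeR adjusted p = 0.0488) with its highest mean, 220.5 CPM, at 110–119 μm, the group in which the mean of CTNNBL1 was lowest, 41.3 CPM.

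**Figure D5:**
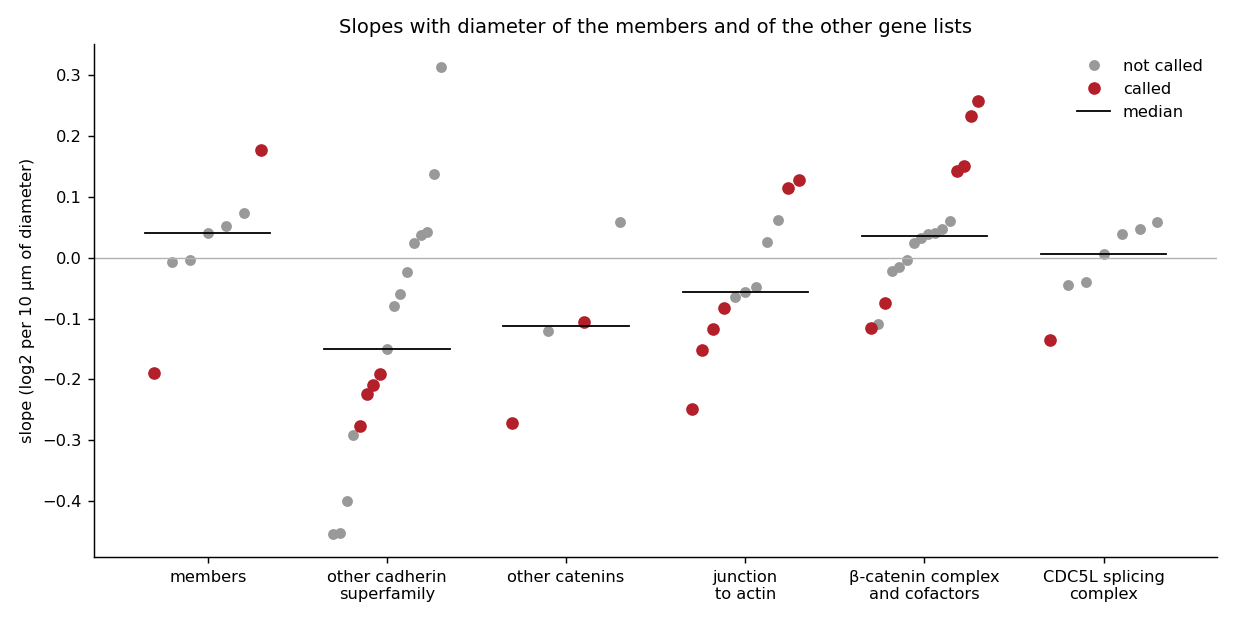
Slope with diameter over the 16 sums (vertical axis, log2 per 10 μm) for each tested gene of the 6 lists (horizontal axis), red where called at an adjusted p of 0.05 and grey where not, with a black line at the median of the list. The called genes among the other cadherins and other catenins all lie below 0, while CDH1 is the called member above 0.

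The genes most like each member over the 16 sums were sought among 2935 other genes with a symbol (log2(CPM + 1), replicate means removed). CDH1 was closest to GATA3 (r = 0.93), AGMAT (0.92) and CCNQ (0.92). CDH3 was closest to ARFGAP3 (r = 0.96), AP3M2 (0.96) and AP2A2 (0.95). CTNNA1 was closest to AEBP2 (r = 0.89), C23H6orf62 (0.89) and ATG2B (0.85), and CTNNB1 to CTPS1 (r = 0.91), ARFGEF2 (0.89) and, again, AEBP2 (0.80). The closest to CTNND1 were C23H6orf89 (r = 0.90), POU4F3 (0.87) and ABCF3 (0.87). Those closest to CTNNBL1 were CDC20 (r = 0.86), PARS2 (0.84) and BANP (0.84), and those closest to CTNNA2 were AKAP17A (r = 0.82), CTBP1 (0.78) and C17H4orf45 (0.78). Most symbols at hand begin with the first letters of the alphabet, so closer genes may lack a symbol here.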

How the data were processed

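The deposited values are raw counts per gene model and oocyte, which the authors made by trimming reads with Trim Galore (version 0.6.6, per the labels), aligning them with HISAT2 to ARS-UCD1.2 and counting with SeqMonk. How multiply aligned reads, strand and overlapping genes were handled is not given in the sources used here. No column was left unused. Counts of a gene ID on several of the 23161 lines were summed. The gene tables used here were shortened copies (8323 and 2865 entries left out) and pair 3608 IDs with a symbol.

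The 165 oocytes that passed the study's own selection were used out of 179. Sums per size group and replicate were tested in edgeR 4.0.16 (R 4.3.3) after filterByExpr (minimum count 10, minimum total 15; all 7 members passed) and TMM scaling, with size group or mean diameter and the replicate as a block. The replicate number is shared by a library batch of 1 read length, and sums of 1 replicate deviated together (correlation 0.398 to 0.694 over 28 pairs). Calls were made at a Benjamini-Hochberg adjusted p of 0.05 over all 14087 genes. The SE is the log2 value divided by the root of F, and 95% intervals are 1.96 SE each way. Levels per oocyte were log2(CPM + 1), and the limit that a count of 0 allows (3 counts) covers counting error only, since reads carry no molecular identifiers. No pair of oocytes held identical counts (0 pairs).

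Named genes were all members, from each list up to 3 called genes with the smallest adjusted p in the test over size groups, and the 3 genes most like each member. CLSTN1, CTNNAL1, ACTN1, ACTN4, CDC42, ADAM10, AJUBA, AXIN1, AXIN2, CBY1, BTRC and CSNK1D were named after their values were seen, to complete counts by direction. Members and lists were chosen with earlier results of these data known. Alternatives were no block, RLE, DESeq2 1.42.0, no filter, single oocytes with raw or ComBat-seq (sva 3.50.0) counts, 250000 counts per oocyte, all 179 oocytes and each sum left out. Slopes per replicate, the largest line per gene ID and the removal of the 100–109 μm oocyte with the most counts were added after the data had been seen. The fit was tested on simulated data. RefSeq annotation (ARS-UCD2.0) served only for which genes are neighbours. Per-oocyte values came from Python 3.11.15 (pandas 2.3.3, numpy 2.4.6, scipy 1.17.1), with plots by matplotlib 3.10.9.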

Additional observations from a re-analysis of the deposited data

Results flagged for a closer look

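Counts of the members were also present in the 14 deposited oocytes that the comparisons did not use. More than 3 counts, the limit that a count of 0 allows, were found for CTNNA1 in 12 of these oocytes, for CTNNB1 in 11, for CDH3 in 10, for CDH1 in 9, for CTNND1 in 9, for CTNNBL1 in 8 and for CTNNA2 in 3. The highest count among them was 5157 for CTNNB1, 2350 for CDH3 and 748 for CDH1. Their totals ranged from 10 to 4933709 counts.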

How the results depend on the processing

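The slopes of CDH1 (0.15 to 0.22) and CDH3 (-0.20 to -0.16) kept their direction and their call under the 10 alternatives and with each sum left out. Over the 10 alternatives, 15.6 to 57.7% of all genes had a called slope. Between >120 and <60 μm, 0 members were called without the replicate block (CDH1 1.37, adjusted p = 0.129, and CDH3 -1.23, adjusted p = 0.384), and in the test over all groups 0 were called as well (adjusted p = 0.645 for CDH1 and 1 for CDH3). With a sum left out, that comparison of the extremes called 1 to 2 members, with CDH1 at 1.11 to 1.84 and CDH3 at -1.22 to -1.12. From 100–109 to 110–119 μm, where 0 were called in the report, DESeq2 called 3 (14% of all genes). Single oocytes called 4 with raw and 4 with ComBat-seq counts (37 and 38.1%). No filter, 250000 counts per oocyte and the removal of the 100–109 μm oocyte with the most counts called 1 each (7.33, 6.43 and 3.39%). Leaving out a sum gave 0 to 1. Single oocytes as units, raw or ComBat-seq, called 1 member at each of the steps to 70–79, 100–109 and >120 μm, with 4.71 to 8.28% of all genes. In the test over all groups they called 5 of 7 (CDH1, CDH3, CTNNA2, CTNNB1 and CTNND1), near the share of all genes (65.4% raw and 64.2% ComBat-seq). These calls treat oocytes that may share an animal as independent.

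Values near 0 changed sign without being called. The slope of CTNNA1 became 0.00436 with RLE, 0.00430 with DESeq2, 0.00406 without the filter, 0.00717 at 250000 counts and 0.0104 with all 179 oocytes. It became 0.00731 with ComBat-seq and 0.0136 without the 100–109 μm oocyte with the most counts. With a sum left out it lay between -0.00874 and 0.0240. That of CTNNB1 became 0.0474 without the block, 0.000236 with RLE, 0.000230 with DESeq2 and 0.0123 at 250000 counts. It became 0.0184 without the 100–109 μm oocyte with the most counts and 0.00179 with the largest line per gene ID. With a sum left out it lay between -0.0288 and 0.0302. The slope of CTNNA2 lay between -0.0253 and 0.0782 in that case. Between >120 and <60 μm, CTNNA1 was at -0.0421 with single oocytes and at -0.271 to 0.368 with a sum left out, and CTNNB1 at -0.154 to 0.817.

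The r of CDH3 with diameter was -0.562 when variance-stabilised, -0.555 at 250000 counts and -0.145 with all deposited oocytes. That of CTNNBL1 was 0.0762, against 0.137 in replicate 1, 0.0188 at 250000 counts and 0.230 with all deposited oocytes. The cause of these changes was not tested. Depth limits CTNNA2, with a highest sum of 26.5 CPM.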
